A study of Mus with 8 samples.

Results

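Dio2, Irf4 and Ppargc1a were followed on 8 arrays of mouse brown fat, as 3 of the 30142 genes for which a probe set with a single gene name was measured. Each of the 3 had 1 probe set. In the first 2 replicates of each genotype all 3 transcripts had a lower mean in mice labelled HILPDA KO than in wild type mice, and in the other 2 replicates all 3 had a higher mean. Dio2 lay 4.63 log2 units below wild type in the first pair and 2.02 above it in the second, Irf4 lay 1.54 below and 4.97 above, and Ppargc1a lay 0.92 below and 1.36 above. The genes were chosen by these measured KO against wild type differences within each pair of replicates and by their co-variation over the arrays. Both are therefore described here and not tested.

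Brown adipose tissue burns fatty acids to make heat through the uncoupling protein Ucp1. Cold acts on it through noradrenaline, beta-adrenergic receptors and cAMP, and Dio2, Irf4 and Ppargc1a are among the genes known to be induced along that route. Dio2 encodes type 2 deiodinase, the selenoenzyme that converts thyroxine to active triiodothyronine inside the cell. Irf4, best known as a transcription factor of lymphocytes, is known in mouse brown fat as a cAMP-induced partner of the Ppargc1a protein at thermogenic genes. Ppargc1a encodes the coactivator PGC-1alpha, which drives mitochondrial biogenesis through ERR, NRF and PPAR factors.

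The tested mice carried the genotype HILPDA KO (4 arrays) and the others were wild type (4 arrays). All were C57BL/6 mice, and the tissue was the interscapular depot. Hilpda encodes a lipid droplet protein that inhibits the lipase encoded by Pnpla2. The labels name no cold exposure, housing temperature, age, time of day or deleting Cre line, so nothing here measures a response to cold. The series' design text counts 4 mice per genotype with no technical replicates, and 4 arrays per genotype limit the precision of every value.

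Several features of the arrays bear on all values. Replicates 1 and 2 of both genotypes (set 1) had a median over named genes of 3.93 to 3.99 on the log2 scale, and replicates 3 and 4 (set 2) had 4.93 to 4.98. Levels are therefore compared within a set. The signal of 1225 olfactory receptor genes served as a measure of low signal, and its 95th percentile was 3.79 to 3.94 in set 1 and 4.74 to 4.84 in set 2. Hilpda, the targeted gene, read 4.45, 4.37, 5.60 and 5.51 in KO replicates 1 to 4, against 4.37, 4.28, 6.00 and 5.92 on the 4 wild type arrays in the same order. Its difference was 0.085 (SE 0.11) in set 1 and -0.40 (SE 0.11) in set 2 (limma adjusted p = 0.217 in set 2), and the labels do not say whether its probes lie inside the deletion. The labels call all mice female, whereas the Y-linked transcript Uty read 9.31 to 10.93 and Xist 3.49 to 4.10 over the 8 arrays. Of 12 brown adipocyte markers 11 or 12 were above the low-signal line on each array, and Ucp1 lay at the top of the scale on all 8, where no difference can be read.

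Dio2 (gene 13371, chromosome 12) read 6.53 and 7.38 in KO replicates 1 and 2, against 12.01 and 11.15 in wild type replicates 1 and 2. In set 2 it read 14.39 and 12.01 in KO replicates 3 and 4, against 10.28 and 12.09 in wild type replicates 3 and 4. In set 1 both KO values lay far below both wild type values, and the mice of a genotype were 0.85 apart in KO and 0.86 apart in wild type. In set 2 the groups overlapped, since KO replicate 4 lay just below wild type replicate 4, and KO replicate 3 was alone at the high end. The difference was -4.63 (SE 0.87) in set 1, a 24.7-fold lower level, and 2.02 (SE 0.87) in set 2, a 4.05-fold higher level on the linear scale. Without KO replicate 3 the set 2 difference was 0.82, and without KO replicate 4 it was 3.21. The mean of both sets, -1.30 (SE 0.61), joins values of opposite sign. Both KO values below both wild type values were found for 19.5% of named genes in set 1. Among the 15783 genes above the low-signal line that could be compared, 4512 had this order. Of the 30142 genes 0 had a set 1 difference further below 0 than Dio2. That rank describes the values by which Dio2 was chosen and is not further evidence.

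Irf4 (gene 16364, chromosome 13) read 9.59 and 8.83 in KO replicates 1 and 2, against 11.10 and 10.40 in wild type replicates 1 and 2. In set 2 it read 14.46 and 13.83 in KO replicates 3 and 4, against 8.25 and 10.10 in wild type replicates 3 and 4. The genotypes did not overlap in either set, and their order was opposite in the sets. KO arrays had the lower values in set 1 and the higher values in set 2. The difference was -1.54 (SE 0.60) in set 1, a 2.90-fold lower level, and 4.97 (SE 0.60) in set 2, a 31.3-fold higher level. Both wild type arrays of set 2 were low, and they differed from each other by 1.85. The set 2 difference was 4.04 without wild type replicate 3 and 5.89 without wild type replicate 4. Among the 30142 genes 0 had a larger set 2 difference, a rank of the same values by which Irf4 was chosen. A pattern of KO below wild type in set 1 and above it in set 2, with no overlap in either, was found for 7.45% of named genes. Among the 15783 genes above the low-signal line that could be compared, 2017 had it, a larger share.

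Ppargc1a (gene 19017, chromosome 5) had the smallest differences of the 3. It read 11.17 and 12.51 in KO replicates 1 and 2, against 12.14 and 13.38 in wild type replicates 1 and 2. In set 2 it read 15.72 and 15.40 in KO replicates 3 and 4, against 14.10 and 14.31 in wild type replicates 3 and 4. The genotypes overlapped in set 1, where KO replicate 2 lay above wild type replicate 1. In set 2 they did not overlap, and mice of the same genotype lay within 0.32 of each other in KO and 0.21 in wild type. KO above wild type without overlap was found for 24.0% of named genes in set 2. It was found for 4728 of the 15783 genes above the low-signal line that could be compared, a larger share. The difference was -0.92 (SE 0.51) in set 1, 1.36 (SE 0.51) in set 2 and 0.22 (SE 0.36) in the mean. Without KO replicate 1 the set 1 difference was -0.25, and without KO replicate 2 it was -1.59. Leaving out 1 array at a time moved the mean between -0.12 and 0.55, so its sign depended on single arrays.

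**Figure D1:**
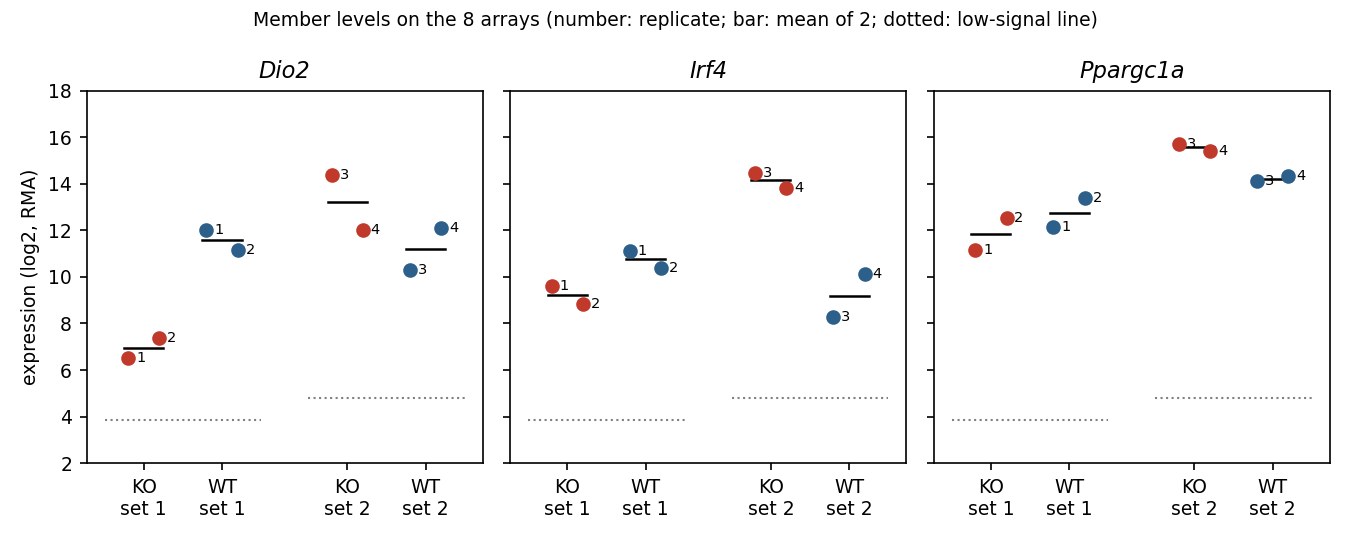
Expression of Dio2, Irf4 and Ppargc1a on the log2 scale (vertical axis) on each of the 8 arrays, with KO left of WT in set 1 (replicates 1 and 2) and in set 2 (replicates 3 and 4). Points are arrays with their replicate number, bars are means of 2 arrays, and the dotted line is the mean 95th percentile of olfactory receptor genes in that set. KO points lie below WT points in set 1 for Dio2 and Irf4, and above them in set 2 for Irf4 and Ppargc1a.

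All 3 transcripts were well above low signal on every array. The smallest distance to the 95th percentile of olfactory receptor genes on the same array was 2.58 for Dio2, 3.46 for Irf4 and 7.23 for Ppargc1a. The low Dio2 values of KO replicates 1 and 2 are thus measured levels and not readings at the floor of the array.

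The change of the KO difference between the sets (the set 2 difference minus the set 1 difference) was 6.64 (SE 1.22) for Dio2, 6.51 (SE 0.84) for Irf4 and 2.28 (SE 0.72) for Ppargc1a. Of the other genes 2 had a larger value than Dio2. They were Nr4a1, at 8.88, and Slc7a8, at 6.73, both picked out after their values were seen. Ppargc1a came further down, with 73 genes above it. These ranks also describe values by which the members were chosen. As a description of the whole table, limma called 38 of 65494 features (0.0580%, with 16 named genes, 0.0531% of those) for a difference between the sets at an adjusted p under 0.05. It called 0 named genes in set 1, in set 2 or in the mean of both sets, and 2 features without a single gene name in set 1 (0.00305% of all features). At an unadjusted p under 0.05 the shares of named genes were 6.63% in set 1, 13.4% in set 2, 5.98% in the mean and 13.5% between the sets. Over all features they were 6.02%, 12.9%, 6.52% and 11.9%.

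**Figure D2:**
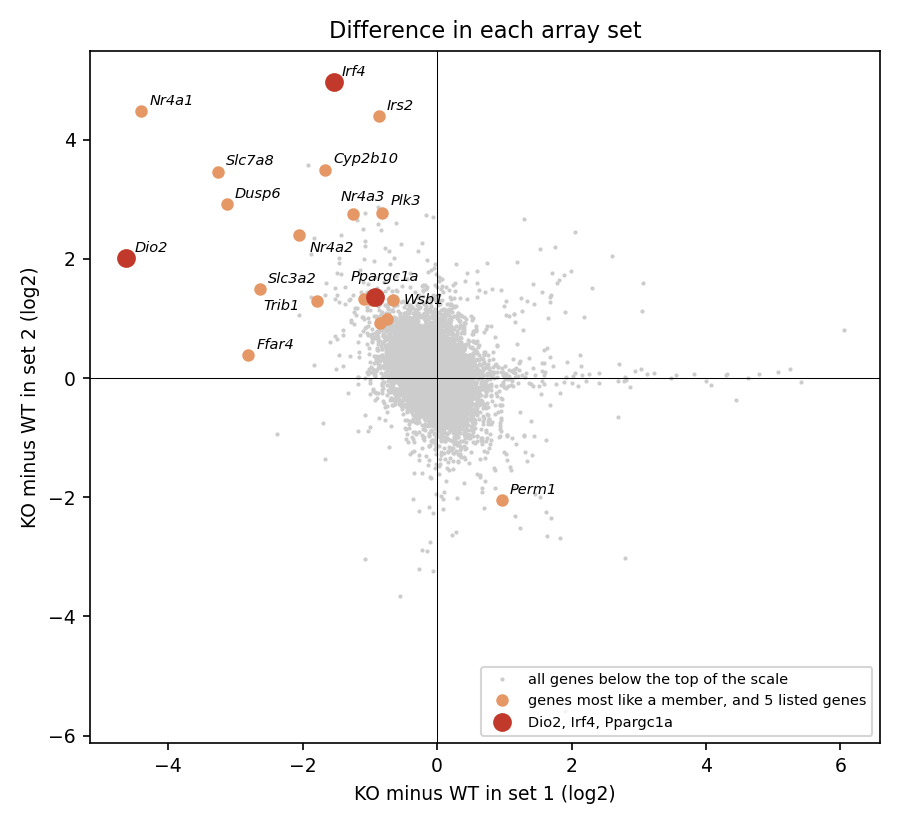
KO minus WT on the log2 scale in set 1 (horizontal axis) against set 2 (vertical axis) for all genes below the top of the scale (grey), the members (red) and, in orange, the genes most like them with Nr4a1, Slc7a8, Ffar4, Wsb1 and Perm1. Members lie upper left, lower in KO in set 1 and higher in KO in set 2, and Perm1 lies lower right. Fry, Sec16a, Tle3 and Impact are the unlabelled orange points around Ppargc1a.

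The 3 genes did not order the arrays alike. In set 2 Irf4 and Ppargc1a had the same order from low to high, wild type replicate 3, wild type replicate 4, KO replicate 4 and KO replicate 3. Dio2 shared the lowest and the highest array of that order, with the middle arrays exchanged. In set 1 Dio2 and Irf4 both placed the KO arrays lowest and wild type replicate 1 highest. Ppargc1a instead placed KO replicate 1 lowest and wild type replicate 2 highest. After each gene was centred on its set mean, Dio2 and Irf4 lay on the same side of 0 on 7 of 8 arrays, Irf4 and Ppargc1a on 6, and Dio2 and Ppargc1a on 5. The root mean square difference of the centred values over the 8 arrays was 1.62 between Dio2 and Irf4, 1.58 between Dio2 and Ppargc1a and 1.54 between Irf4 and Ppargc1a. The centred values themselves had a root mean square of 1.96, 1.92 and 0.74 for Dio2, Irf4 and Ppargc1a. The array sets form separate clusters of 4, so no correlation over arrays is given. Co-variation over the arrays was part of the choice of the 3 genes. These orders, counts and distances therefore describe the values behind that choice and are not further evidence.

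The 4 genes nearest to each member were picked from 14955 genes searched. Picked as the nearest, they had to lie close, so their distances cannot be weighed against those between the members. The distance also depends on the size of a pattern. A gene with no differences within the sets would lie 0.74 from Ppargc1a. For Dio2 the 4 nearest were Dusp6 (root mean square difference 0.68), a phosphatase of ERK kinases that is induced by their activity, Slc3a2 (0.998), Nr4a2 (1.04) and Trib1 (1.12), a pseudokinase that guides protein degradation. Dusp6 read 5.78 and 6.10 in KO replicates 1 and 2, against 9.44 and 8.70 in wild type replicates 1 and 2. In set 2 it read 10.47 and 9.12 in KO replicates 3 and 4, against 5.95 and 7.79 in wild type replicates 3 and 4. Its genotypes overlapped in neither set.

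Irf4 had a closer neighbour than Dio2. Irs2, the insulin receptor substrate that couples the receptor to PI3 kinase, lay 0.32 from it over the 8 arrays. Irs2 read 9.70 and 9.19 in KO replicates 1 and 2, against 10.67 and 9.96 in wild type replicates 1 and 2. It read 14.76 and 14.09 in KO replicates 3 and 4, against 9.04 and 11.02 in wild type replicates 3 and 4, and was clearly higher in both KO arrays of set 2. The next were Cyp2b10 (0.82), a cytochrome P450, Nr4a3 (0.86) and Plk3 (0.93), a stress-responsive kinase. For Ppargc1a, whose own pattern was smaller, the nearest after predicted genes were passed over (6 before Sec16a and Tle3, 7 before Impact) were Fry (0.28), a gene of the furry family, Sec16a (0.36), a protein of endoplasmic reticulum exit sites, Tle3 (0.36), a corepressor known in adipocytes, and Impact (0.37), a regulator of the kinase Gcn2. These genes were selected for likeness out of 14955 genes searched, so their differences carry no test.

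**Figure D3:**
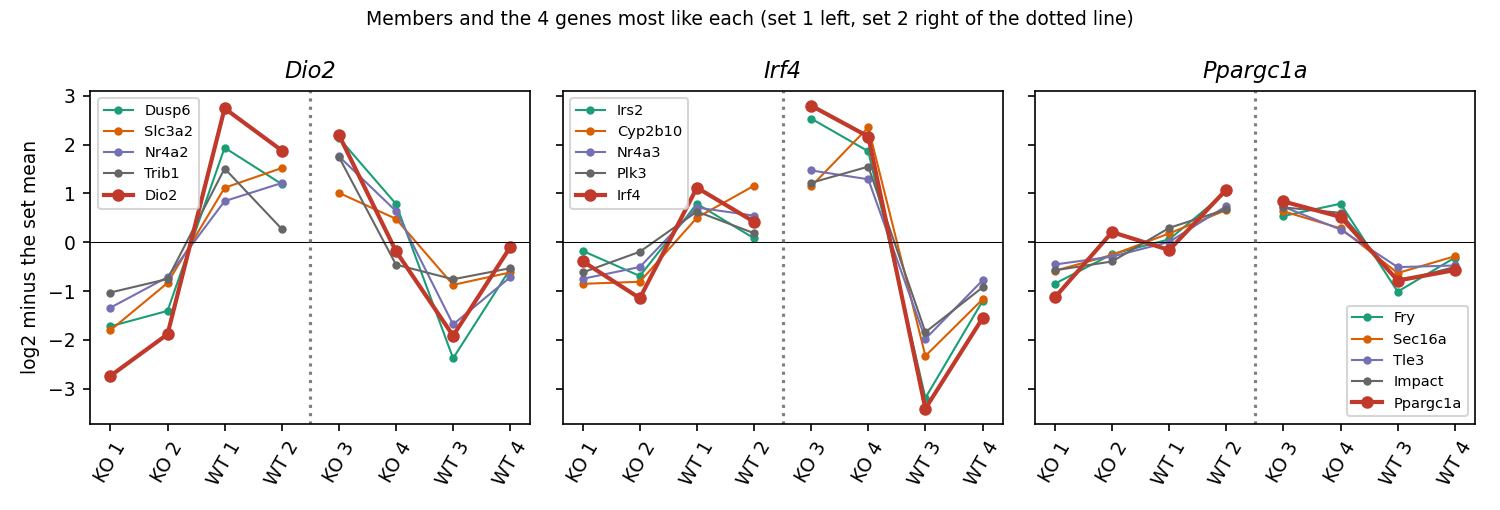
Log2 values minus the mean of the array set (vertical axis) for each member (red, thick) and its 4 most like genes, over KO and WT arrays of set 1 and set 2 (horizontal axis). Irs2 runs closest to Irf4, and wild type replicate 3 is the lowest array of set 2 for all 3 members.

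A list of other genes known to be induced by cold or adrenergic stimulation had differences of both signs in each set. Of 22 listed, 20 were measured and 18 could be compared, since Ucp1 and Pdk4 lay at the top of the scale on all arrays. In set 1, 8 were higher and 10 lower in KO (median difference -0.032 on the log2 scale), and in set 2, 10 were higher and 8 lower (median 0.051). The medians over all genes were 0.0039 and 0.018. At an unadjusted p under 0.05, 0 were higher and 5 lower in set 1, and 4 were higher and 2 lower in set 2. All genes gave 2.17% higher and 4.46% lower in set 1, and 8.03% higher and 5.38% lower in set 2. The set 1 calls of the list were thus all lower, at a larger share of the 18 than over all genes. Calls in set 1 also leaned lower among the 15783 compared genes above the low-signal line, with 446 higher and 1295 lower. The list was chosen with earlier results of these data known. By limma 0 of the 18 passed after adjustment in either set, between the sets or in the mean.

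The genes of that list with the pattern of Irf4 were the 3 NR4A receptors and Crem. The NR4A genes encode orphan nuclear receptors induced by cAMP, and Crem encodes a cAMP-responsive transcription factor. All 4 were lower in both KO arrays of set 1 and higher in both KO arrays of set 2. Dio2 did not have this order in set 2, where its genotypes overlapped. The 4 genes were picked for the pattern after their values were seen. It was found for 4 of the 18 compared genes of the list. Beside that stand 7.45% of named genes, and 2017 of 15783 compared genes above the low-signal line. Nr4a1 read 6.29 and 7.63 in KO replicates 1 and 2, against 12.71 and 10.01 in wild type replicates 1 and 2. It read 15.44 and 14.53 in KO replicates 3 and 4, against 8.23 and 12.79 in wild type replicates 3 and 4. Its difference was -4.41 (SE 1.48) in set 1 and 4.48 (SE 1.48) in set 2, and the change between the sets, 8.88 (SE 2.09), had an adjusted p of 0.157 (limma). Nr4a2 differed by -2.06 and 2.40 (limma adjusted p = 0.0635 between the sets), Nr4a3 by -1.26 and 2.76 (adjusted p = 0.0529) and Crem by -0.48 and 0.79 (adjusted p = 0.126). Nr4a3 had a limma adjusted p of 0.0433 when genes of low signal were left out, which tests fewer features. With another variance estimate or scaling it did not pass. Its change between the sets was 3.42 to 4.62 with 1 array left out at a time.

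Other genes of the list had other patterns. Elovl3, a fatty acid elongase strongly induced by cold, differed by 0.06 in set 1 and -1.04 in set 2, where KO replicate 4 was low at 15.63. Esrrg, an orphan receptor that works with Ppargc1a, differed by -0.75 and -0.47, and Ucp3 by -1.004 and -0.81. Lpin1, a phosphatidate phosphatase and coactivator, differed by 0.75 and 0.87, with KO replicate 4 highest at 16.91. Ffar4, a fatty acid receptor, differed by -2.81 in set 1 and 0.39 in set 2, and only Dio2, Nr4a1, Slc7a8 and Dusp6 lay further below 0 in set 1. Fgf21 and Bmp8b, secreted factors of activated brown fat, were below the low-signal line on all 8 arrays.

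Genes around Dio2 in the thyroid hormone pathway contained the only listed gene that passed a test. Wsb1, which encodes the ubiquitin ligase adaptor known to mark the Dio2 protein for degradation, read 6.29 and 6.45 in KO replicates 1 and 2, against 7.06 and 6.98 in wild type replicates 1 and 2. On the arrays of set 2 it read 8.97 and 8.81 in KO replicates 3 and 4, against 7.48 and 7.67 in wild type replicates 3 and 4. The genotypes overlapped in neither set, with KO lower in set 1 and higher in set 2. The differences were -0.65 (SE 0.13) and 1.31 (SE 0.13), and their change between the sets was 1.96 (SE 0.19, limma adjusted p = 0.0401). That call is narrow. With any 1 array left out the value was 1.87 to 2.06 and the adjusted p 0.064 to 0.139, and it was 0.0664 with an intensity trend and 0.0586 after quantile normalization.

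Slc7a8, the light chain of a transporter that carries large neutral amino acids and thyroid hormones, had the largest differences of the thyroid list. It read 12.13 and 13.59 in KO replicates 1 and 2, against 15.70 and 16.54 in wild type replicates 1 and 2. The set 2 values were 15.75 and 17.04 in KO replicates 3 and 4, against 11.97 and 13.88 in wild type replicates 3 and 4. The change between the sets was 6.73 (SE 1.08, limma adjusted p = 0.0749). Slc3a2, the heavy chain that pairs with it, was the second gene most like Dio2 and differed by -2.64 in set 1 and 1.49 in set 2.

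Other genes of that pathway varied less. Usp33, a deubiquitinase that rescues the Dio2 protein, differed by -0.99 in set 1 and 0.72 in set 2, and Sephs2, which makes the selenium donor for selenoproteins, by -0.78 and 0.54. Marchf6, a second ligase of the Dio2 protein, differed by -0.45 and 0.10. The receptors Thra and Thrb differed by 0.32 and -0.64, and by -0.37 and 0.32. The other deiodinases, Dio1 and Dio3, were below the low-signal line on all 8 arrays. Of 21 measured genes 16 were lower in set 1 and 11 higher in set 2, with medians of -0.055 and 0.105, and 10 of 21 (47.6%) were lower in set 1 and higher in set 2, against 29.9% of all genes and 39.5% of genes above the low-signal line. That share was 38.9% for the cold-induced list, 31.8% for cAMP signalling, 29.6% for Ppargc1a partners, 33.3% for mitochondrial targets and 13.3% for Irf4 relatives. Between the sets 8 were higher and 1 lower at an unadjusted p under 0.05, where all genes gave 8.71% and 4.77%. Of the 15783 compared genes above the low-signal line, 2407 were higher and 1120 lower, larger shares than over all genes. For Slco1a4, a transporter of organic anions and thyroid hormones, the difference was -0.54 in set 1 and 2.25 in set 2, with KO replicate 4 highest at 8.12.

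The adrenergic receptor genes were not analysed here, and of the 22 measured genes of cAMP signalling limma called 0. In set 1, 11 were higher and 11 lower (median -0.0034), and in set 2, 8 were higher and 14 lower (median -0.084). At an unadjusted p under 0.05, 0 were higher and 3 lower in set 1, and 2 were higher and 5 lower in set 2, where all genes gave 2.17% and 4.46% in set 1 and 8.03% and 5.38% in set 2. Prkaca, the main catalytic subunit of protein kinase A, differed by 0.33 and -1.08, and Akap1, which anchors the kinase to mitochondria, by 0.53 and -1.07. Gnas, the stimulatory G protein, differed by -0.09 and -0.52, and Adcy6, an adenylyl cyclase, by -0.19 and -0.81. Pde4b, a cAMP phosphodiesterase, differed by -0.16 and 0.67, close to the low-signal line. Rgs2, a regulator of G proteins that cAMP induces, read 15.35 and 15.07 in KO replicates 3 and 4, against 11.62 and 14.27 in wild type replicates 3 and 4, and differed by 2.26 (SE 0.75). Wild type replicate 3 was the low array for Rgs2, as it was for the 3 members.

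Partners and regulators of Ppargc1a showed differences of both signs. Of 27 measured, 9 were higher and 18 lower in each set (medians -0.070 and -0.13), and limma called 0. At an unadjusted p under 0.05, 1 was higher and 2 lower in set 1, and 2 were higher and 3 lower in set 2. Over all genes the shares were 2.17% and 4.46% in set 1, and 8.03% and 5.38% in set 2. Perm1, a muscle and fat regulator induced by Ppargc1a and the ERR receptors, read 6.52 and 7.09 in KO replicates 1 and 2, against 6.02 and 5.68 in wild type replicates 1 and 2. In set 2 it read 7.61 and 7.25 in KO replicates 3 and 4, against 9.27 and 9.67 in wild type replicates 3 and 4. The genotypes overlapped in neither set, and the order was the reverse of that of Irf4. For Perm1 the change between the sets was -3.00 (SE 0.35, limma adjusted p = 0.0503), just outside the threshold. The adjusted p was 0.0433 when genes of low signal were left out, which tests fewer features. With another variance estimate or scaling Perm1 did not pass. Its change was -3.29 to -2.72 with 1 array left out at a time. Ppargc1b, the close relative of Ppargc1a, differed by -1.17 in set 1 and -0.10 in set 2. Flcn, a negative regulator of Ppargc1a activity in mouse fat, differed by -0.68 and 0.84, and Nrip1, a corepressor of thermogenic genes, by -0.49 and 0.24. Ppara differed by -0.38 and -1.24, Pparg by -0.22 and -0.10, and Twist1, a repressor of Ppargc1a targets, was below the low-signal line.

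Mitochondrial target genes of Ppargc1a differed by 0.69 or less in size in either set, except Cox6a2. In set 1, 12 of 27 were higher and 15 lower (median -0.012), and in set 2, 10 were higher and 17 lower (median -0.075). Tfam, the mitochondrial DNA packaging factor, differed by -0.13 and -0.18, Cycs by 0.09 and -0.23 and Cs by -0.036 and -0.17. Cox7a1 differed by -0.12 and -0.22, and Cox4i1 by -0.29 and -0.16. Cox6a2, a cytochrome oxidase subunit of heart and skeletal muscle, read 4.74 and 7.60 in KO replicates 3 and 4, against 8.06 and 7.01 in wild type replicates 3 and 4. It differed by 0.04 in set 1 and -1.36 (SE 0.88) in set 2, and its order over the set 2 arrays was that of the mean of the muscle markers, whose part in it was not tested. The change between the sets was -0.92 for Polrmt, the mitochondrial RNA polymerase (limma adjusted p = 0.0867), and -0.65 for Sod2, both in the direction opposite to Ppargc1a. By limma 0 of the 27 passed, and at an unadjusted p under 0.05, 1 was higher and 0 lower in set 1, and 0 were higher and 4 lower in set 2. The all-gene shares beside these are 2.17% and 4.46%, and 8.03% and 5.38%.

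**Figure D4:**
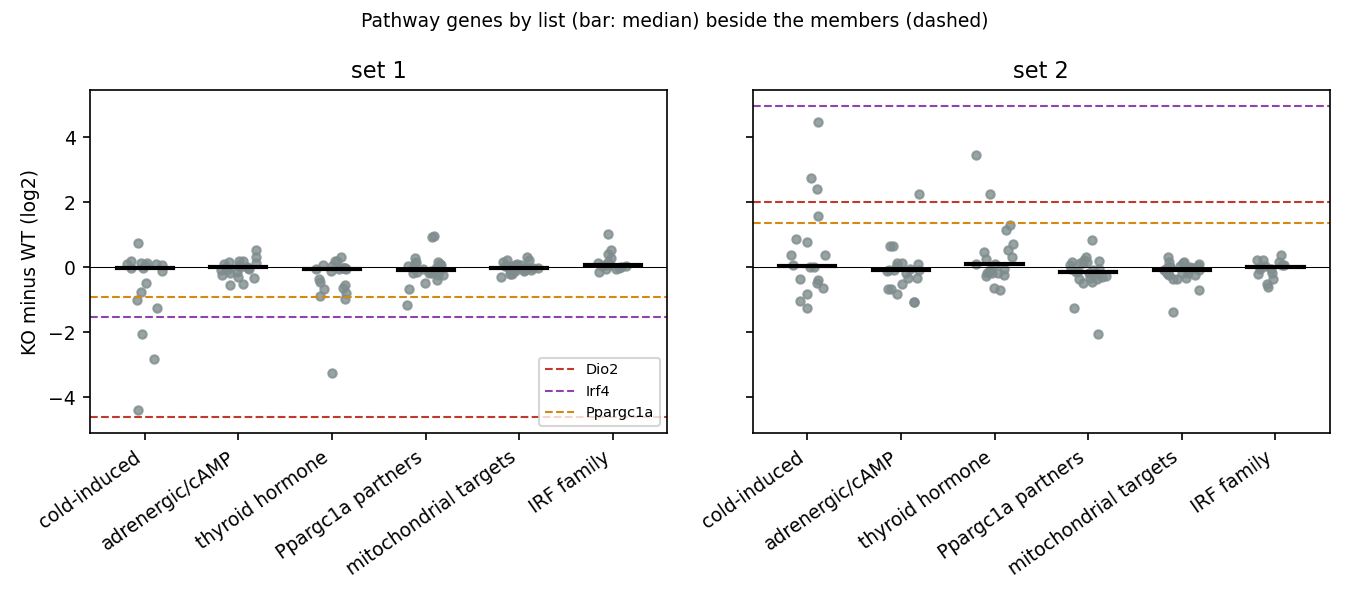
KO minus WT on the log2 scale (vertical axis) for the measured genes of 6 lists in set 1 (left) and set 2 (right), with the median of each list as a bar and the members as dashed lines. Medians of all lists lie near 0 in both sets. Dio2 lies at -4.63 in set 1 and Irf4 at 4.97 in set 2, values by which these genes were chosen.

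Relatives of Irf4 differed by 0.61 or less in size in set 2, where Irf4 differed by 4.97. In set 1 they differed by up to 1.02, where Irf4 differed by -1.54. Irf4 was chosen by these differences, so its larger size beside its relatives is not further evidence. Of 15 measured interferon regulatory factors and partners, 11 were higher and 4 lower in set 1 (median 0.072), and 8 were higher and 7 lower in set 2 (median 0.023). Irf7 differed by 0.30 and 0.38 and Irf1 by -0.15 and -0.50, and limma called 0 of the 15. At an unadjusted p under 0.05, 2 were higher and 0 lower in set 1, and 1 was higher and 2 lower in set 2, beside all-gene shares of 2.17% and 4.46%, and of 8.03% and 5.38%. Irf2 differed by 0.40 and -0.61, with KO replicate 4 apart from the other KO arrays at 7.66. Irf2bp2, a corepressor, differed by 1.02 in set 1 and 0.08 in set 2. Irf8 and Ikzf3, of immune cells, were below the low-signal line on all 8 arrays. Only 8 of the 15 were above that line on every array, and small differences of the others cannot be read.

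Genes reported in mice to be controlled by Irf4 in fat had differences of 1.04 or less in size. Lipe, hormone-sensitive lipase, differed by 0.11 and -0.73 and Pnpla2 by 0.06 and 0.095. Prdm16, a brown fat determination factor, differed by -0.19 and -0.33. Cidea read 18.76 on all 4 arrays of set 1 and 19.28 to 19.37 in set 2, near the top of the scale, and no difference was read from it. Mstn, which encodes myostatin, was above the low-signal line on 3 of 8 arrays and differed by 0.12 and 0.15. The list held 7 measured genes, 6 of them below the top of the scale, and limma called 0, with 1 lower in set 2 at an unadjusted p under 0.05 (5.38% of all genes). In whole tissue fewer cells of a type and less RNA per cell cannot be told apart.

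Irf4 is also a gene of B, plasma and T cells, and Ppargc1a of muscle and liver, so the markers of those tissues were read on the same arrays. Of 9 B and plasma cell markers 0 were above the low-signal line on any array of set 1, and 1 on each array of set 2. Their mean was 4.25 to 4.33 in KO arrays of set 2, against 4.27 to 4.34 in wild type arrays of set 2. Of 8 T and NK cell markers at most 2 were above the line on any array. Macrophage and dendritic cell markers averaged 5.09 to 5.40 in KO arrays, against 5.10 to 5.33 in wild type arrays of set 1, and 6.59 to 6.61 in KO arrays, against 6.35 to 6.45 in wild type arrays of set 2.

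Skeletal muscle and liver markers differed between single arrays. The mean of 18 muscle markers was 5.95 and 8.61 in KO replicates 1 and 2, against 7.68 and 7.20 in wild type replicates 1 and 2. It was 5.52 and 10.03 in KO replicates 3 and 4, against 10.40 and 8.86 in wild type replicates 3 and 4. In set 2 Ppargc1a was highest in KO replicate 3, which had the lowest muscle mean, and lowest in wild type replicate 3, which had the highest. In set 1 both Ppargc1a and the muscle mean were lowest in KO replicate 1. The mean of 15 liver markers was 11.67 and 8.11 in KO replicates 1 and 2, against 7.72 and 5.67 in wild type replicates 1 and 2. On set 2 arrays it was 4.26 to 4.28 in KO arrays, against 4.17 to 4.25 in wild type arrays of set 2. In set 1 Dio2 was lowest in KO replicates 1 and 2, which had the highest liver means. Wild type replicate 1 had a liver mean of 7.72, near the 8.11 of KO replicate 2. Dio2 read 12.01 in that wild type array, the highest of the set, against 7.38 in KO replicate 2. The part of either tissue in the members' differences was not tested.

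**Figure D5:**
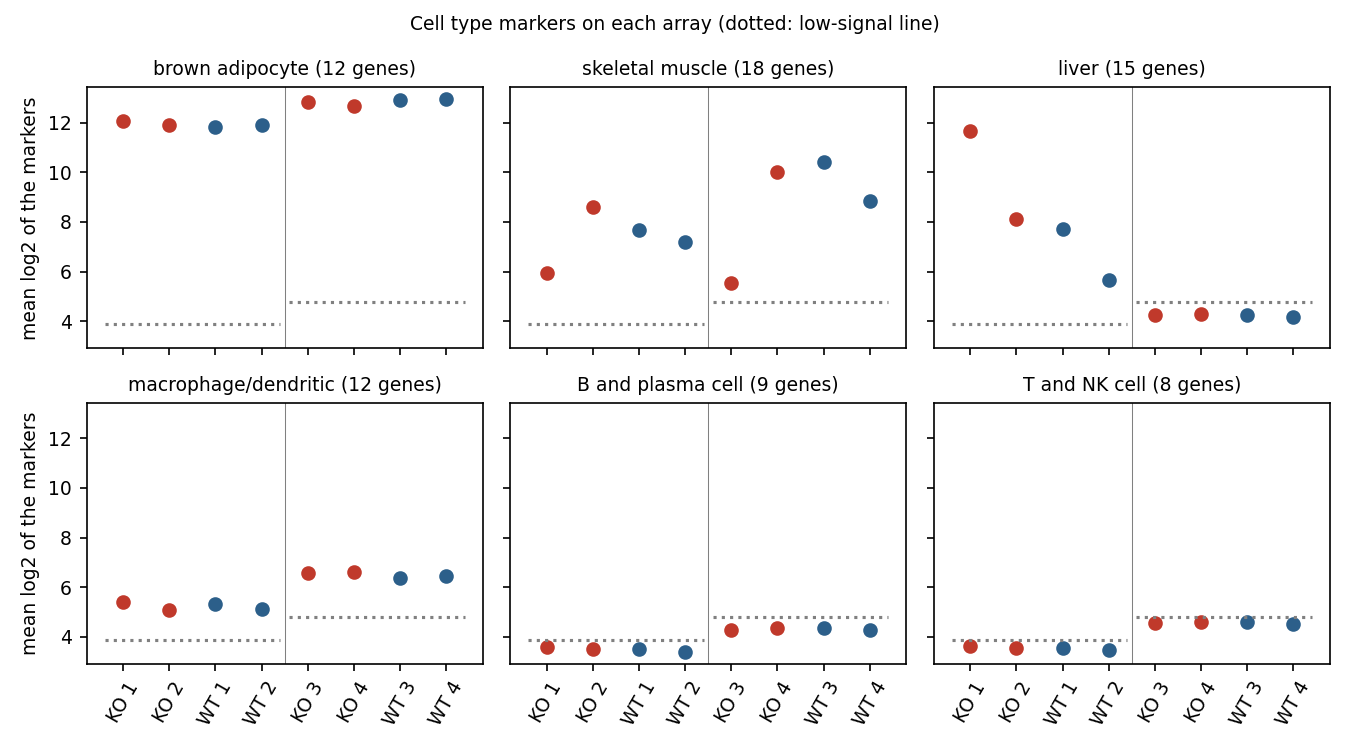
Mean log2 level of the markers of 6 cell types (vertical axis) on each array, KO in red and WT in blue, set 1 left and set 2 right. Dotted lines are the mean 95th percentile of olfactory receptor genes in the set. Lymphocyte markers lie under that line, brown adipocyte markers lie at 11.83 or above, and muscle and liver markers vary between arrays of 1 genotype.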

How the data were processed

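RNA of brown fat from 8 mice was hybridised to 1 Affymetrix array each. The deposited values are log2 expression per probe set, made by the authors with RMA in Expression Console as a core-exon analysis, per the labels and the submitters' processing notes. The design text names Clariom S arrays, and the table holds 72688 probe sets, 6732 of them controls. Gene names came from the platform annotation, with 22818 symbols updated by gene ID. Of the other probe sets 30604 had 1 gene name, 2146 several and 33206 none. For each of 30142 genes the probe set with the highest mean was used, and 65494 features were tested. RefSeq (GRCm38.p6) gave the chromosomes.

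The arrays fell into set 1 (replicates 1 and 2) and set 2 (replicates 3 and 4), which differ in their distribution of values, and the labels do not say why. limma 3.58.1 in R 4.3.3 was fitted to 4 cells (genotype by set, 2 arrays each, which share 1 estimate of the spread), with contrasts within each set, for their mean and for the set 2 difference minus the set 1 difference. P-values were adjusted by Benjamini-Hochberg over all features, with a threshold of 0.05. The fit was tested on simulated data. Tables and plots used Python 3.11.15.

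The members and gene lists were chosen with earlier results of these data known. No test was run on the members, since the contrast and their co-variation over arrays chose them. Genes were named by rule: per list the 3 with the smallest p in the mean and the 2 with the smallest p between the sets, 7 reference genes, and per member the 4 most alike by root mean square difference of set-centred values. Other genes named were picked from the lists after their values were seen. Values within 0.1 of an array's highest were not compared.

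Replicate numbers are shared by the genotypes. Deviations from the group means of same-numbered arrays correlated at 0.471 to 0.702, but with the sets taken out at 0.108 for replicates 1 and 2 and at -0.092 for replicates 3 and 4, and the numbers were not taken as pairs. Alternatives changed the model, scaling, filter and probe set rule, and left out each array.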

Additional observations from a re-analysis of the deposited data

Results flagged for a closer look

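Irf4 had all KO arrays below the wild type arrays in set 1 and all KO arrays above them in set 2, a change of 6.51 in the log2 difference, and this change was not tested, since the same values chose the gene. Wsb1 differed between the sets by 1.96 in the test of that difference (limma adjusted p = 0.0401), a call lost with any 1 array left out. Lpin1 read 16.91 in KO replicate 4, against 15.35 to 15.56 in the other KO arrays, and Irf2 read 7.66 in KO replicate 4, against 6.91 to 7.02 in the other KO arrays. Both flags set all 4 KO arrays side by side although they come from sets with different distributions of values. Within set 2 the only other KO array read 15.49 for Lpin1 and 6.92 for Irf2, so neither can be called apart within the set. For arrays of 1 distribution chance marks about 5% of groups, a rate that need not hold across the sets.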

How the results depend on the processing

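No value of the 3 members changed sign within a set under the 14 alternatives that give a value there, many of which cannot move it (another variance estimate, or an array of the other set left out). With 1 array left out at a time, the Dio2 difference ranged from 0.82 to 3.21 in set 2 and from 5.45 to 7.83 between the sets. Irf4 ranged from 4.04 to 5.89 in set 2 and from 5.58 to 7.43 between the sets, and Ppargc1a from -1.59 to -0.25 in set 1 and from 1.61 to 2.95 between the sets. Each such fit assumes that the lone array of a cell varies like the others. The number of features called at an adjusted p under 0.05 in the mean of both sets was 0, and 1 with set as an additive block. In set 1 it was 2, and 0 with an intensity trend, with robust variances, with centred medians, after quantile normalization and with the filter on low values. Between the sets it was 38, and 16 with a trend, 23 with robust variances, 18 after quantile normalization and 181 with the filter, which tests fewer features. Leaving out 1 array gave 0 to 4 features in the mean, 0 to 6 in set 1, 0 to 17 in set 2 and 0 to 43 between the sets. The replicate block gave the same mean difference for Dio2 (-1.30), Irf4 (1.71) and Ppargc1a (0.22). It could not do otherwise, since every replicate number is shared by both genotypes. The replicate block called 0 features, with 2654 at an unadjusted p under 0.05. That number was 101 with genotype alone, 3073 with set as an additive block and 4270 in the fit of genotype by set. The cause of these changes in count was not tested. Of the other named values 590 kept their call, 10 for Wsb1 lost it, and 2 for Nr4a3 and 1 for Perm1 gained it. The precision is limited by 2 arrays per cell, and values near the top of the scale (Ucp1, Pdk4) or under the low-signal line have no readable difference.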
